A study of Mus musculus with 18 samples.

Results

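A group of 10 genes that the tumor suppressor p53 switches on, or that belong to the same response, was followed in mouse embryonic stem cells (ESCs) lacking DNA methyltransferases. They are *Trp53*, which encodes p53 itself, *Cdkn1a*, *Mdm2*, *Ccng1*, *Trp53inp1*, *Bbc3*, *Aen*, *Sesn2*, *Perp* and *Bax*. The genes were chosen by symbol, and 8 of the 10 were found among the 35512 probe sets, each with 1 probe set, while *Trp53* and *Bax* matched no probe set by symbol and were not analysed here. Of the 8 probe sets, 7 carry 1 symbol. The probe set of *Cdkn1a* lists a second symbol, *4930567H12Rik*, a gene on chromosome 8, and of the 9 accessions listed for it both RefSeq entries are transcripts of *Cdkn1a*. Values given for *Cdkn1a* are those of this probe set, and a contribution of the second gene cannot be told apart in them.

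The cells were J1 ESCs of strain 129Sv/Jae with 3 genotypes: wild type (wt), *Dnmt1-/-*, and TKO, which lacks *Dnmt1*, *Dnmt3a* and *Dnmt3b*. *Dnmt1* encodes the enzyme that copies methylation onto newly made DNA, and the other two enzymes set new methylation marks. Each genotype was sampled in the undifferentiated state (day 0) and as embryoid bodies (EBs), aggregates formed in hanging drops that turn into a mixture of early cell types, at day 4 and day 16, giving 9 groups with 2 biological replicates each. Each genotype is represented by 1 line, so genotype and line cannot be told apart, and neither an added agent nor a stress treatment is named for any group. Values are log2 signals made by robust multi-array averaging (RMA), so that a difference of 1 is a doubling. Signals ran from 1.21 to 14.01 and array medians from 5.77 to 5.90. The *Dnmt1* signal was 9.16 to 9.77 on the 6 wt arrays, 8.45 to 8.86 on the 6 *Dnmt1-/-* arrays and 8.40 to 8.75 on the 6 TKO arrays. These ranges of wt and mutant arrays did not overlap. The *Dnmt3a* signal was 7.96 to 9.45 in wt and 6.45 to 7.65 in TKO, without overlap, but that of *Dnmt3b*, also deleted in TKO, was 7.33 to 8.88 in TKO and lay within the range of the wt arrays, the lowest of which was at 7.16. Whether the probe sets cover the deleted parts of these genes was not tested.

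The p53 protein is held at a low level by Mdm2, a ubiquitin ligase whose gene is itself a p53 target, and it accumulates after DNA damage and other stresses. It then raises genes that stop the cell cycle (*Cdkn1a*), that promote apoptosis (*Bbc3*, *Bax*, *Perp*, *Aen*, *Trp53inp1*), that limit growth under metabolic stress (*Sesn2*) and that feed back on p53 (*Mdm2*, *Ccng1*). ESCs are known for a short G1 phase with little *Cdkn1a*, and loss of Dnmt1 is known to activate p53 in fibroblasts.

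Because the mutations act on DNA methylation, the promoters of *Cdkn1a* and *Sesn2*, whose signals moved between groups, are shown first, from RefSeq on build GRCm38.p6. For 8 of the 10 genes there was a promoter entry of 300 bases, of which 250 lie before the start of transcription. *Cdkn1a* on chromosome 17 has a pair of starts. The stretch before the first is chr17:29090729-29090978 on the plus strand, with a pair of p53 half-sites in capitals. The stretch before the second, chr17:29093519-29093768 on the same strand, lies inside the gene and has its CpG dinucleotides, the bases on which these enzymes act, in capitals. *Sesn2* is on the minus strand of chromosome 4, and the stretch chr4:132510457-132510706 before its start has CpGs in capitals too. *Ccng1* is on the minus strand of chromosome 11, and its pair of half-sites, within chr11:40755457-40755486, is set beside that of *Cdkn1a*.
Cdkn1a, first start: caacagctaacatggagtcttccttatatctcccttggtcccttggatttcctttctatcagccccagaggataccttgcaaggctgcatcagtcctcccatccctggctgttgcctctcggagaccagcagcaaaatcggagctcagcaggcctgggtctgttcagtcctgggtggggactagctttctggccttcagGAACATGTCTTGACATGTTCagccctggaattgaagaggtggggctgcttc
Cdkn1a, second start: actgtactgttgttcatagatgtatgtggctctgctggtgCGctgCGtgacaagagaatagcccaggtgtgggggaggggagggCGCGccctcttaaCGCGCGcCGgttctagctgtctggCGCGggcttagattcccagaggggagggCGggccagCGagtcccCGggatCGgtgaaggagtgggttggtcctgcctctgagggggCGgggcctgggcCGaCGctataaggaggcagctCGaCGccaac
Sesn2: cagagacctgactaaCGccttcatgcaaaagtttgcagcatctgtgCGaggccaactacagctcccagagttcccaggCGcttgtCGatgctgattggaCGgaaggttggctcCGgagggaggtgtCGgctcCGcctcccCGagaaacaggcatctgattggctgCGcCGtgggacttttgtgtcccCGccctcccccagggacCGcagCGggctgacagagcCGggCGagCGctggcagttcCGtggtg
Ccng1: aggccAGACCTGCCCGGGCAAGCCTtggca

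The search used the p53 half-site consensus of 10 bases, which reads the same on both strands, in adjacent pairs without a spacer. The best pair had 1 mismatch before the first start of *Cdkn1a*, where it begins 51 bases upstream, and 1 mismatch before *Ccng1*, where it begins 195 bases upstream. Pairs with at most 1 mismatch were present in 29 of 27025 genes with a promoter entry (0.107%). *Bbc3*, *Aen*, *Trp53* and *Bax* had a best pair with 3 mismatches, a level that 7.2% of genes reach, and *Mdm2* and *Sesn2* one with 5. Pairs with a spacer and sites outside these entries, such as those within a gene, were not searched. A gene without a close match here may therefore have one elsewhere. The 300-base entries held 2 and 23 CpGs for the first and second start of *Cdkn1a*, 23 for *Sesn2*, 35 for *Mdm2* and 14 for *Ccng1*, against a median of 7 over all entries. The promoter of the first *Cdkn1a* start, with a close match to the consensus, was therefore poor in CpGs, and the second start was rich in them without such a match. These are descriptions of sequence, and neither p53 binding nor methylation was measured in these arrays.

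**Figure D1:**
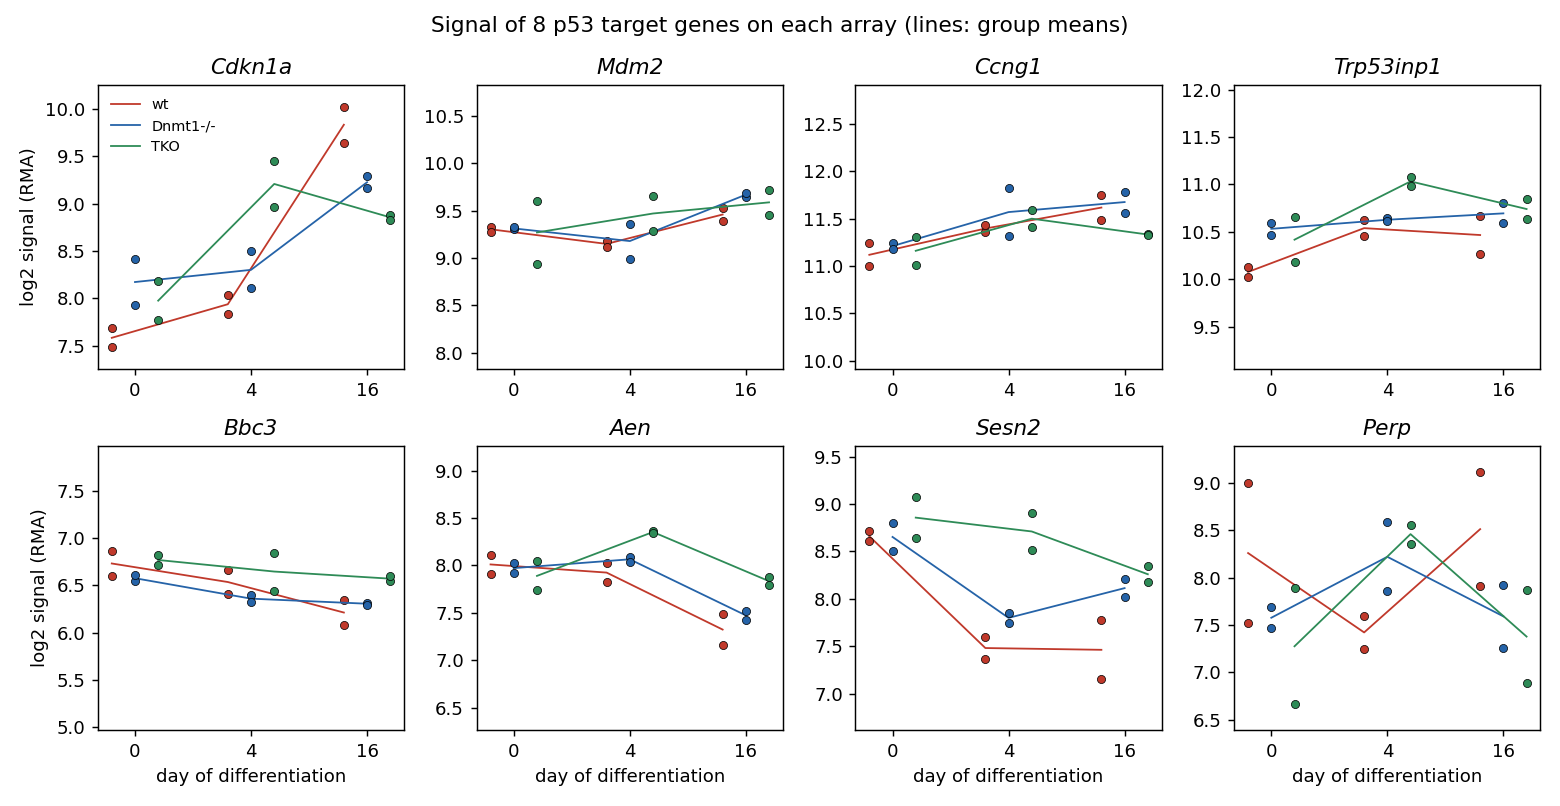
Log2 signal (RMA) of each of the 8 genes on every array, by day of differentiation, with wt in red, *Dnmt1-/-* in blue and TKO in green; points are arrays (2 per group), lines join group means, and every panel spans 3 log2 units. *Cdkn1a* of wt climbs to 10.02 and 9.64 at day 16, TKO *Cdkn1a* stands highest at day 4, and the 2 *Perp* arrays of wt ESCs lie 1.48 apart.

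In the fit without the replicate number, *Cdkn1a* and *Sesn2* were the only ones of the 8 genes to be called in any comparison. A call stands for a log2 difference of 1 or more in either direction together with an adjusted p under 0.05 in limma over all probe sets. With the replicate number as a block, *Perp* was called as well, in comparisons given below. The counts that follow are those of the fit without it. In ESCs none of the 8 genes was called, against 0.355% of all probe sets for *Dnmt1-/-* against wt, 0.304% for TKO against wt and 0.00563% for TKO against *Dnmt1-/-*. At an unadjusted p under 0.05 there were 2 genes (*Cdkn1a* and *Trp53inp1*, against 5.83% of all probe sets), 0 (8.73%) and 0 (3.44%). At day 4, *Cdkn1a* and *Sesn2* were higher in TKO than in wt EBs (2 of 8 genes, against 2.92% of all probe sets). None was called in *Dnmt1-/-* EBs against wt (0.738%) or in TKO against *Dnmt1-/-* EBs (0.848%), with 0 genes (5.83% of all probe sets) and 3 genes (10%) at an unadjusted p under 0.05. At day 16 no gene was called in *Dnmt1-/-* against wt (2.89%), in TKO against wt (5.83%) or in TKO against *Dnmt1-/-* (1.07%), and at an unadjusted p under 0.05 there were 2 genes (16.4%), 4 genes (24.1%) and 1 gene (13.8%).

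*Cdkn1a* encodes p21, the cyclin-dependent kinase inhibitor through which p53 stops cells in G1. Its signals in wt were 7.68 and 7.48 in ESCs, 8.04 and 7.84 at day 4, and 10.02 and 9.64 at day 16. In *Dnmt1-/-* cells they were 7.93 and 8.41, then 8.11 and 8.50, then 9.16 and 9.29. In TKO cells they were 7.77 and 8.18, then 8.97 and 9.45, then 8.88 and 8.83. Day 16 was thus above both earlier days in wt and *Dnmt1-/-*, while in TKO the step to a higher signal lay between day 0 and day 4. Ordered by group mean, wt ESCs were lowest at 7.58, followed by wt day 4 at 7.94, TKO ESCs at 7.98, *Dnmt1-/-* ESCs at 8.17, *Dnmt1-/-* day 4 at 8.30, TKO day 16 at 8.85, TKO day 4 at 9.21, *Dnmt1-/-* day 16 at 9.23 and wt day 16 at 9.83. The arrays of neighbours in this order overlapped from wt day 4 through to *Dnmt1-/-* day 4, and again between TKO day 4 and *Dnmt1-/-* day 16.

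In wt, *Cdkn1a* rose by 1.89 between day 4 and day 16 (SE 0.23, 3.72-fold, adjusted p = 0.00016) and by 2.25 between day 0 and day 16 (4.75-fold, adjusted p = 1.9e-05). It was the only one of the 8 genes called between days 4 and 16 in wt, against 5.87% of all probe sets, and 1 of 2 called between days 0 and 16, against 10.8%. In *Dnmt1-/-* cells it rose by 1.05 from day 0 to day 16 (SE 0.23, adjusted p = 0.0069; 1 of 8 genes, against 6.9%). That call was lost without replicate 1 of the ESCs or replicate 2 of the day 16 EBs. In TKO cells *Cdkn1a* rose by 1.23 from day 0 to day 4 (SE 0.23, 2.35-fold, adjusted p = 0.0065; 1 of 8 genes, against 3.17%), a call lost without replicate 1 of the ESCs or replicate 2 of the day 4 EBs. From day 4 to day 16 the TKO value was −0.35 (95% interval −0.85 to 0.14), and none of the 8 genes was called (1.41%), with 1 at an unadjusted p under 0.05 (14.9%).

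At day 4, *Cdkn1a* was 1.27 higher in TKO than in wt (SE 0.23, 2.41-fold, adjusted p = 0.0053), and both TKO arrays lay above both wt arrays. The call was lost in a fit of only the arrays compared and without TKO replicate 2, and over all alternatives the value ran from 1.03 to 1.51 and the adjusted p from 0.0035 to 0.077. *Dnmt1-/-* EBs differed from wt by 0.36 (95% interval −0.13 to 0.86). TKO minus *Dnmt1-/-* was 0.91 (95% interval 0.41 to 1.40, adjusted p = 0.082), which is not past the threshold.

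At day 16 the order was the opposite, with all 4 mutant arrays below the 2 wt arrays. TKO was 0.98 below wt (95% interval 0.48 to 1.47 below, adjusted p = 0.012), just short of the fold line, and the gene was called without wt replicate 2 or without TKO replicate 1. *Dnmt1-/-* minus wt was −0.61 (95% interval −1.10 to −0.11, adjusted p = 0.18). The change between day 4 and day 16 was tested for a difference between genotypes. That of TKO was lower than that of wt by a log2 value of 2.25 (change of TKO minus change of wt −2.25, SE 0.32, adjusted p = 0.0019; 1 of 8 genes, against 2.89% of all probe sets). This difference was called under every alternative in which the probe set was kept. For *Dnmt1-/-* the same difference was −0.97 (SE 0.32, adjusted p = 0.30), and no gene was called (0.884%), with 2 at an unadjusted p under 0.05 (8.35%). From day 0 to day 4 the TKO change exceeded that of wt by 0.88 (SE 0.32, adjusted p = 0.30), with none of the 8 genes called against 1.38% and 4 at an unadjusted p under 0.05 (10.3%), so the earlier rise in TKO was not shown to differ from the wt change. The wt EBs enter each of these comparisons.

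**Figure D2:**
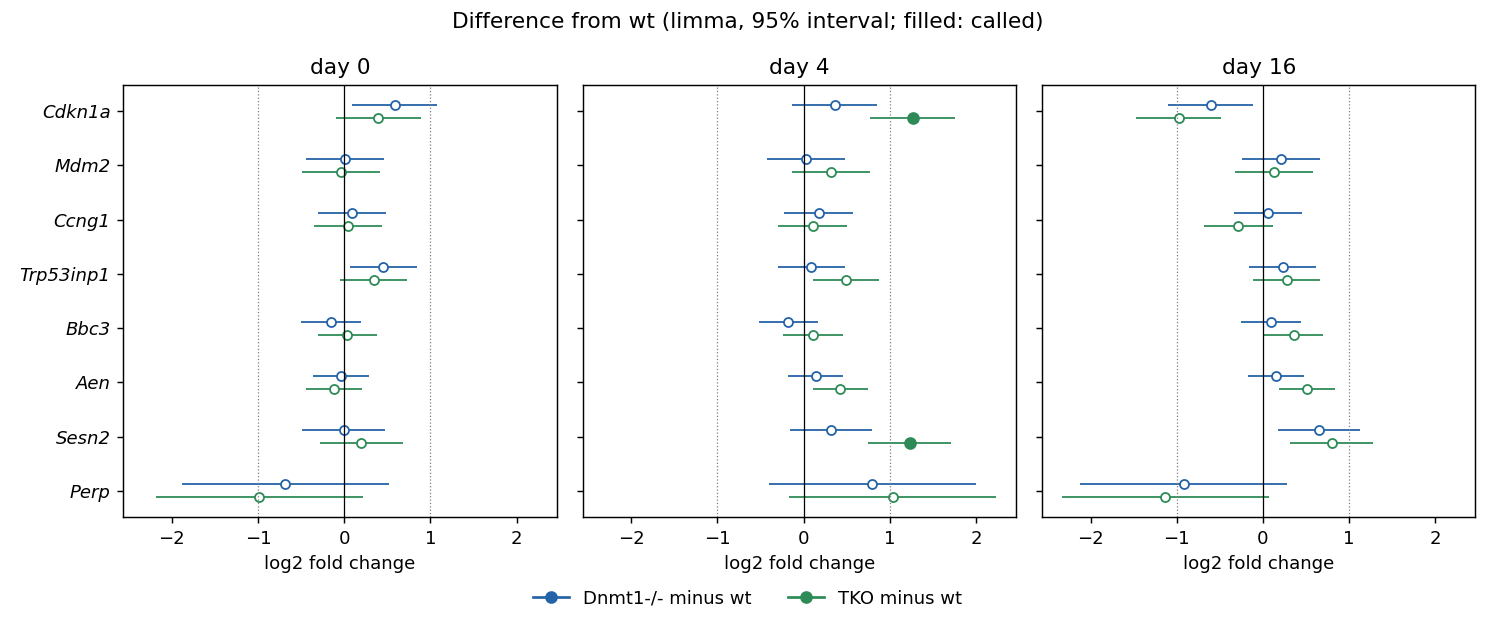
Log2 fold change of each mutant against wt at days 0, 4 and 16 for the 8 genes, with 95% intervals from limma; filled points are called, dotted lines mark −1 and 1. The 2 filled points are *Cdkn1a* (1.27) and *Sesn2* (1.23) of TKO at day 4, and the intervals of *Perp* are the widest.

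*Sesn2* encodes Sestrin 2, a stress-induced inhibitor of mTORC1 signaling that also binds leucine, and is a target of ATF4 as well as of p53. Its wt signals were 8.71 and 8.61 in ESCs, 7.59 and 7.37 at day 4, and 7.77 and 7.15 at day 16. In *Dnmt1-/-* cells they were 8.80 and 8.50, then 7.75 and 7.85, then 8.21 and 8.02. In TKO cells they were 9.07 and 8.64, then 8.51 and 8.91, then 8.34 and 8.18. The 3 lines overlapped in ESCs, and from day 4 on the wt arrays and the TKO arrays were apart, with the TKO arrays higher.

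*Sesn2* fell by 1.18 in wt between day 0 and day 4 (SE 0.22, adjusted p = 0.0048; 1 of 8 genes, against 4.51% of all probe sets), a call kept under all alternatives. By day 16 it had fallen by 1.20 (adjusted p = 0.0015), a call lost without wt replicate 2 of day 16. In *Dnmt1-/-* cells the value from day 0 to day 4 was −0.85 (95% interval −1.33 to −0.37, adjusted p = 0.029), under the fold line, and none of the 8 genes was called (4.61%), with 1 at an unadjusted p under 0.05 (20.8%). In TKO cells it was −0.15 (95% interval −0.63 to 0.33). The TKO change exceeded that of wt by 1.03 (SE 0.31, adjusted p = 0.16), which did not pass. At day 4 the TKO signal of *Sesn2* was 1.23 above that of wt (SE 0.22, 2.35-fold, adjusted p = 0.0055), a call lost without TKO replicate 2. TKO minus *Dnmt1-/-* was 0.91 at that day (95% interval 0.43 to 1.39, adjusted p = 0.072). At day 16 TKO minus wt was 0.80 (adjusted p = 0.031) and *Dnmt1-/-* minus wt 0.65 (adjusted p = 0.13), both under the fold line, and *Sesn2* of TKO was called without wt replicate 1.

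The feedback genes moved little. *Mdm2* signals were 9.33 and 9.28 in wt ESCs, 9.18 and 9.12 at day 4 and 9.53 and 9.39 at day 16, and over all 18 arrays they lay between 8.93 and 9.72. *Ccng1*, which encodes cyclin G1, a partner of a phosphatase that acts on Mdm2, had wt signals of 11.24 and 10.99, 11.36 and 11.43, and 11.75 and 11.48, within a range of 10.99 to 11.83 over all arrays. The group means of *Mdm2* spanned 0.52 and those of *Ccng1* 0.56. Neither gene was called in any of the 22 comparisons. TKO minus wt at day 4 was 0.32 for *Mdm2* (95% interval −0.13 to 0.77) and 0.10 for *Ccng1* (95% interval −0.29 to 0.50), so a doubling of either lies outside the interval.

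Among the genes tied to apoptosis, *Aen*, a nuclease that degrades DNA in dying cells, had the tightest replicates, with a pooled SD of 0.13. Its wt signals were 8.11 and 7.91 in ESCs, 7.83 and 8.02 at day 4, and 7.48 and 7.16 at day 16. TKO signals were 8.04 and 7.74, then 8.36 and 8.35, then 7.80 and 7.87, so the TKO arrays were above the wt arrays at days 4 and 16 and overlapped them in ESCs. TKO minus wt was 0.43 at day 4 (adjusted p = 0.15) and 0.51 at day 16 (SE 0.15, adjusted p = 0.039). Between day 0 and day 16 the value was −0.69 in wt (adjusted p = 0.0043), −0.50 in *Dnmt1-/-* (adjusted p = 0.038) and −0.06 in TKO. All of these lie under the fold line, and *Aen* was called nowhere.

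*Bbc3* encodes Puma, a BH3-only protein that releases Bax and Bak to start apoptosis. Its wt signals were 6.60 and 6.86 in ESCs, 6.41 and 6.66 at day 4, and 6.34 and 6.08 at day 16. All 18 arrays lay between 6.08 and 6.86, and its mean was at percentile 60.8 of all probe sets, the lowest of the 8 genes. From day 0 to day 16 the wt value was −0.52 (SE 0.16, adjusted p = 0.032). TKO minus wt was 0.11 at day 4 and 0.36 at day 16 (95% interval 0.01 to 0.70, adjusted p = 0.19).

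*Trp53inp1*, a nuclear protein that promotes p53 phosphorylation and autophagy, had wt signals of 10.13 and 10.02 in ESCs, 10.45 and 10.62 at day 4, and 10.66 and 10.27 at day 16. In *Dnmt1-/-* ESCs it was at 10.47 and 10.59, and in TKO ESCs at 10.65 and 10.18, above both wt arrays in each case. The difference from wt was 0.45 for *Dnmt1-/-* (95% interval 0.07 to 0.84, adjusted p = 0.73) and 0.34 for TKO (adjusted p = 0.67). Its highest group was TKO day 4, at 10.99 and 11.08, and TKO minus wt there was 0.49 (SE 0.18, adjusted p = 0.17). None of these passed.

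*Perp* encodes a membrane protein of desmosomes that is a p53 target in apoptosis and is needed for epithelial adhesion. It was the least reproducible of the 8 genes, with a pooled SD of 0.64 against a median of 0.21 over all probe sets, and replicate 1 was above replicate 2 in 8 of 9 groups. Wt signals were 9.0 and 7.52 in ESCs, 7.60 and 7.25 at day 4, and 9.11 and 7.91 at day 16. TKO signals were 7.89 and 6.67, then 8.36 and 8.56, then 7.87 and 6.89. *Dnmt1-/-* minus wt was 0.80 at day 4 (95% interval −0.40 to 2.00) and −0.92 at day 16 (95% interval −2.12 to 0.28). The 2 mutants were close to each other, with TKO minus *Dnmt1-/-* at 0.24 at day 4 and −0.21 at day 16. TKO minus wt was 1.04 at day 4 (95% interval −0.16 to 2.24, adjusted p = 0.43) and −1.13 at day 16 (95% interval −2.33 to 0.07, adjusted p = 0.24), so the intervals span both no difference and a change of more than 4-fold. With the replicate number as a block in the fit, the same difference at day 16 passed (SE 0.34, adjusted p = 0.036) and that at day 4 did not (adjusted p = 0.09), and *Perp* was also called in wt from day 4 to day 16 (1.09, adjusted p = 0.041) and in TKO from day 0 to day 4 (1.18, adjusted p = 0.047). A list of 8 genes of simple epithelium and desmosomes, the structures *Perp* belongs to, had a mean log2 signal of 9.09 in wt ESCs, where its arrays lay at 8.68 and 9.51, against 8.10 in *Dnmt1-/-* and 7.81 in TKO ESCs. At day 4 the list stood at 9.38, 9.15 and 9.01 in wt, *Dnmt1-/-* and TKO, lowest in TKO while *Perp* was highest there, and at day 16 at 10.37, 10.03 and 9.88. Its part in the *Perp* values was not tested.

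**Figure D3:**
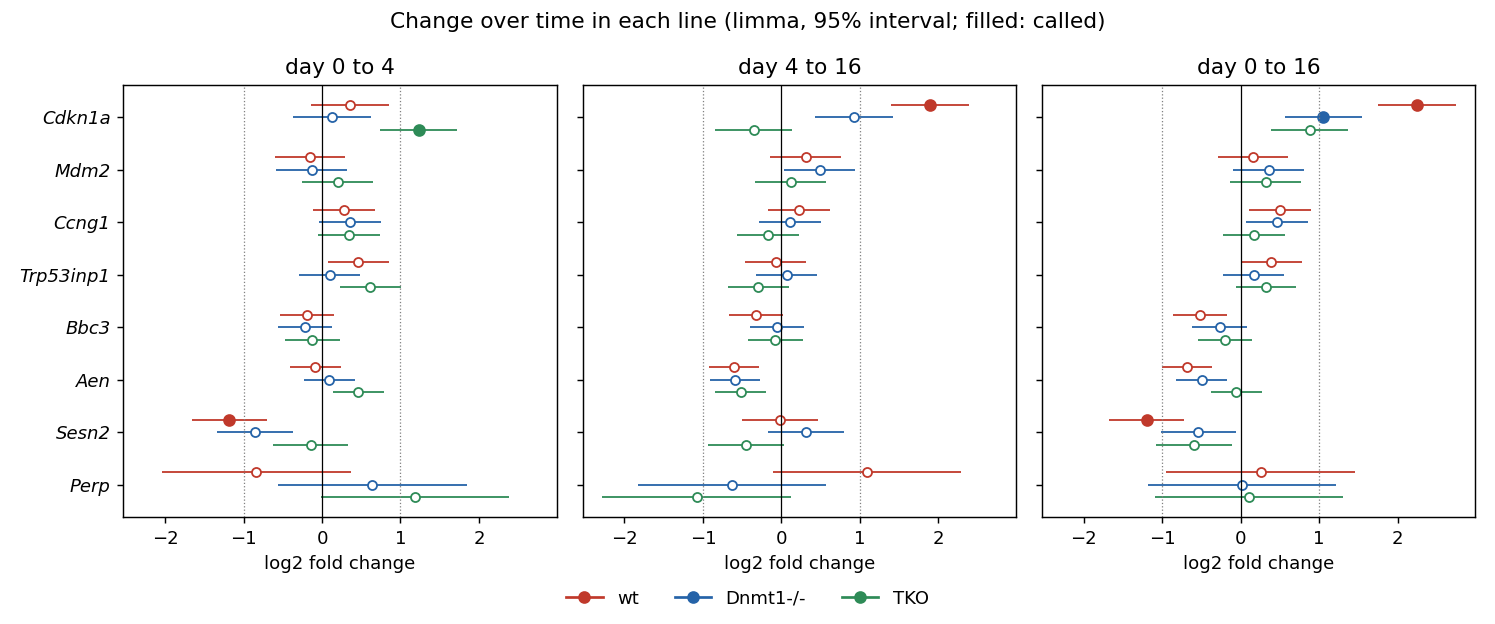
Log2 fold change of the 8 genes between days 0 and 4, 4 and 16, and 0 and 16 in wt, *Dnmt1-/-* and TKO, with 95% intervals from limma; filled points are called. *Cdkn1a* is filled in TKO from day 0 to 4 (1.23), in wt from day 4 to 16 (1.89) and in wt and *Dnmt1-/-* from day 0 to 16 (2.25 and 1.05), and *Sesn2* is filled only on the lower side, in wt.

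Over the 8 genes together, TKO minus wt at day 4 was above 0 for all 8, with a median of 0.46 against −0.05 over all probe sets. At the same day *Dnmt1-/-* minus wt was above 0 for 7 genes, with a median of 0.16 against −0.05. In ESCs the medians were 0.00 for *Dnmt1-/-* and 0.04 for TKO, against −0.03 and −0.02 over all probe sets, with 4 and 5 genes above 0. At day 16 they were 0.12 and 0.20, against −0.03 and 0.05, with 6 and 5 genes above 0. The share of all probe sets above 0 was not counted. The 2 mutants share the wt arrays of each day. Between day 4 and day 16 of TKO, 1 of the 8 genes was above 0, and the median was −0.32 against 0.01 over all probe sets. No gene was called in *Dnmt1-/-* from day 4 to day 16 (2.7% of all probe sets), where *Cdkn1a* stood at 0.92 (adjusted p = 0.035), or in TKO from day 0 to day 16 (2.5%), where it stood at 0.88 (adjusted p = 0.044). At an unadjusted p under 0.05 there were 3 genes in the former and 2 in the latter, against 16.9% of all probe sets in each. For the change of *Dnmt1-/-* minus that of wt from day 0 to day 4, neither the 8 genes nor any other probe set was called by limma (0%), and at an unadjusted p under 0.05 there were 0 of the 8 genes and 4.1% of all probe sets.

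Other genes of the pathway were taken from 8 lists with 105 genes, of which 101 had a probe set with their symbol. In ESCs none of the 101 genes was called in either mutant, with 10 in *Dnmt1-/-* and 18 in TKO at an unadjusted p under 0.05, against 5.83% and 8.73% of all probe sets. In *Dnmt1-/-* EBs against wt, none was called at day 4 (9 at an unadjusted p under 0.05, against 5.83% of all probe sets). At day 16, where 2.89% of all probe sets were called, *Dram1*, a p53 target in autophagy, was 1.15 higher (adjusted p = 0.0047) and *Ephx1*, which encodes an epoxide hydrolase, was lower, at −1.50 (adjusted p = 0.0021). Both calls were lost in the fit of only the arrays compared, and that of *Dram1* also without *Dnmt1-/-* replicate 1. In TKO EBs at day 4, 4 genes were higher and 1 was lower than in wt (4.95% of the 101, against 2.92% of all probe sets). *Plk3*, a stress-activated kinase, was 1.54 higher (adjusted p = 0.00039), and *Gadd45a*, which acts in DNA damage arrest and repair, was 1.30 higher (adjusted p = 0.0025). *Eda2r*, a receptor of the TNF family, was 1.11 higher (adjusted p = 0.024), and *Cdkn2a*, the locus of p16 and of Arf, which blocks Mdm2, was 1.09 higher (adjusted p = 0.0086). *Cdkn1c*, which encodes the kinase inhibitor p57, was lower, at −1.44 (adjusted p = 0.014). The calls of *Plk3* and *Gadd45a* held under all alternatives. Those of *Eda2r*, *Cdkn2a* and *Cdkn1c* were lost in the fit of only the arrays compared. Without single arrays, that of *Eda2r* was lost in each case, that of *Cdkn2a* without wt replicate 1 or TKO replicate 2, and that of *Cdkn1c* without wt replicate 2 or either TKO replicate.

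By list, at day 4 of TKO against wt, 3 of the 29 measured genes in the list of further p53 targets were higher and none lower, where 2.92% of all probe sets were called, with a median of 0.43 against −0.05 over all probe sets. The same list had a median of 0.05 at day 16, against 0.05 over all probe sets, with 2 genes higher and 3 lower, where 5.83% of all probe sets were called. *Sfn*, a target that encodes 14-3-3 sigma, stood at 1.66 at day 4 without passing (SE 0.52, adjusted p = 0.10). The 7 genes of the multidomain BCL-2 family, which hold the balance between survival and apoptosis at mitochondria, had no call in TKO against wt at either day, nor had the 9 BH3-only genes or the 13 genes of the sestrin and amino acid stress list. At an unadjusted p under 0.05 the counts of these 3 lists were 3, 4 and 2 at day 4 and 5, 3 and 2 at day 16, against 15.4% and 24.1% of all probe sets. Their medians were −0.02, 0.06 and −0.10 at day 4 and −0.07, 0.01 and 0.03 at day 16. Some of these genes had an adjusted p under 0.05 and missed a call only by the fold line. At day 4 these were *Bok* at 0.85 (adjusted p = 0.007) and *Bid* at 0.62 (adjusted p = 0.036). At day 16 *Bok* (0.54), *Bid* (0.70) and *Asns* (0.72) were higher, and *Bcl2* (−0.68), *Bcl2l1* (−0.59) and *Sesn3* (−0.87) were lower, with adjusted p from 0.01 to 0.042.

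At day 16, 5 of the 101 genes were higher in TKO than in wt and 7 were lower (11.9%, against 5.83% of all probe sets in either direction). Higher were 3 of the 17 p53 regulators: *Sirt1*, a deacetylase of p53, by 1.38 (adjusted p = 4.5e-05), *Usp7*, which removes ubiquitin from Mdm2 and p53, by 1.28 (adjusted p = 7.9e-06), and *Chek2*, a DNA damage kinase, by 1.01 (adjusted p = 0.0014). *Plk3* was 1.26 higher (adjusted p = 0.00064), and *Gtse1*, a mitotic protein that restrains p53, was 1.16 higher (adjusted p = 0.00045). The lower genes included *Casp8*, the initiator caspase of death receptors, at −1.79 (adjusted p = 0.0011), and 3 of the 9 genes of the death receptor pathway. These were *Tnfrsf1a* at −1.34 (adjusted p = 0.00078), *Fas* at −1.25 (adjusted p = 0.0077) and *Cflar*, an inhibitor of caspase 8, at −1.10 (adjusted p = 0.0011). *Ephx1* at −1.35, *Plk2* at −1.11 and *Cdkn1c* at −1.11 were the others. The calls of *Chek2*, *Fas*, *Cflar*, *Plk2* and *Cdkn1c* were lost in the fit of only the arrays compared. That of *Fas* was also lost without wt replicate 1, that of *Cflar* without TKO replicate 2, and that of *Chek2* without wt replicate 2 or TKO replicate 2. That of *Plk2* was lost without either wt replicate or TKO replicate 2, and that of *Cdkn1c* without wt replicate 2 or either TKO replicate. Both of these were also lost when p-values of all comparisons were adjusted jointly.

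**Figure D4:**
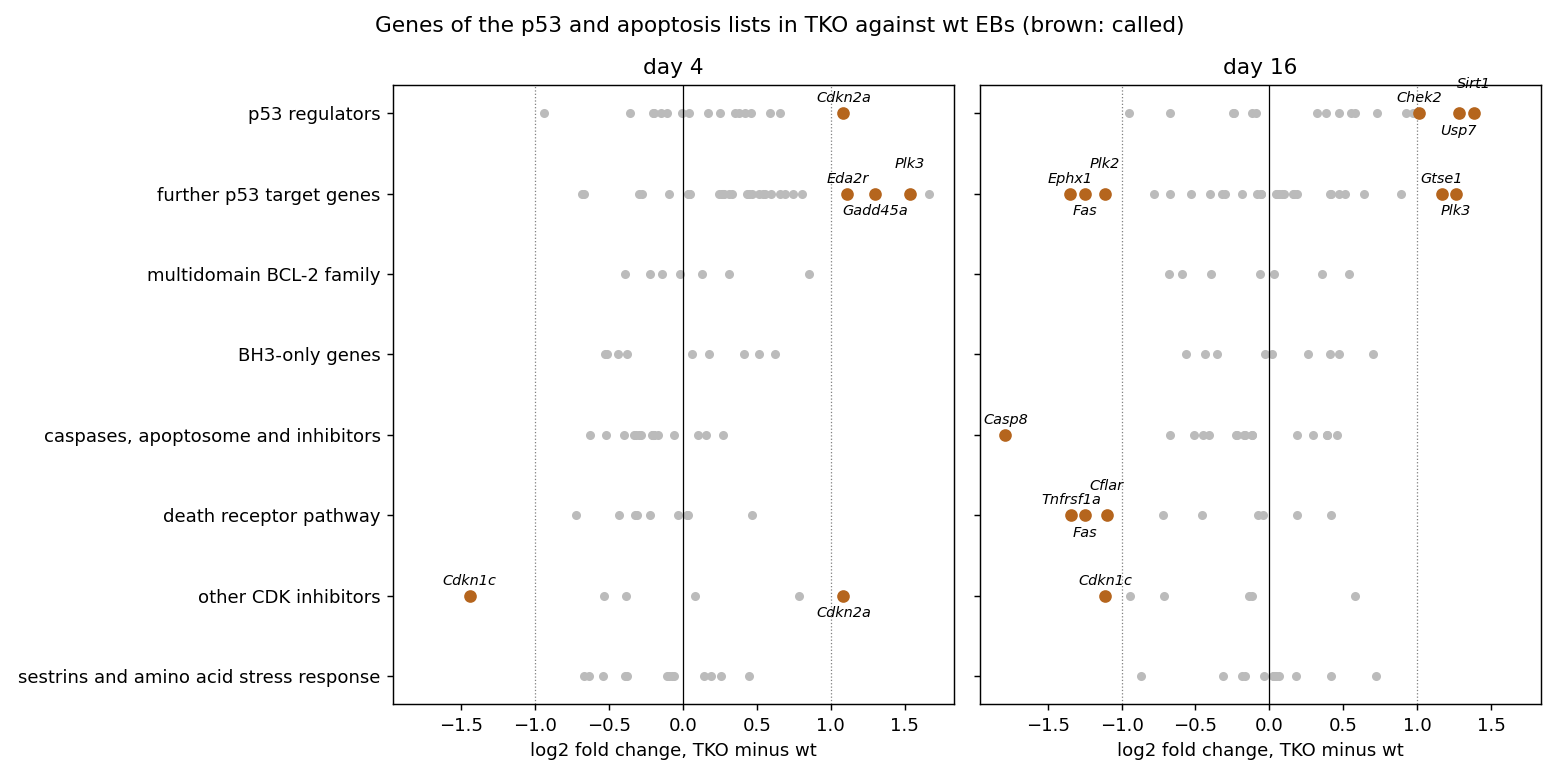
Log2 fold change of TKO against wt EBs at day 4 (left) and day 16 (right) for the measured genes of the 8 pathway lists, 1 point per gene and list; brown points are called and named, and dotted lines mark −1 and 1. At day 4 the calls on the higher side are *Plk3*, *Gadd45a*, *Eda2r* and *Cdkn2a*, and at day 16 *Casp8*, *Tnfrsf1a*, *Fas* and *Cflar* are on the lower side.

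In wt differentiation from day 0 to day 16, 14 of the 101 genes rose and 11 fell (24.8%, against 10.8% of all probe sets). The share over all probe sets, here and above, includes 12102 probe sets without a symbol, so the sets compared are not alike. Among the risers were *Tnfrsf1a* by 2.36 (adjusted p = 5.8e-06), *Cdkn1c* by 2.07 (adjusted p = 3e-04), *Casp6* by 1.99 (adjusted p = 2.7e-05), *Casp8* by 1.97 (adjusted p = 0.00026) and *Btg2*, an antiproliferative target, by 1.75 (adjusted p = 0.00011). *Chek2* fell by 1.81 (adjusted p = 9.4e-06), and *Sirt1* and *Tigar*, a regulator of glycolysis, fell by 1.70 each. *Casp6*, *Casp8* and *Tnfrsf1a* rose over the same days in *Dnmt1-/-* (1.72, 2.11 and 1.86) and in TKO (1.42, 1.31 and 1.04). The TKO calls were lost in the fit of only the arrays compared, that of *Tnfrsf1a* also under both other scalings of the arrays and without replicate 1 of the ESCs or of the day 16 EBs, and that of *Casp8* without either ESC replicate or replicate 1 of day 16. *Plk3* fell in wt from day 0 to day 4 by 1.88 (adjusted p = 6.6e-05) and in *Dnmt1-/-* by 2.08 (adjusted p = 6.7e-05), and *Gadd45a* fell by 1.72 in wt (adjusted p = 0.00024). Neither *Plk3* nor *Gadd45a* was called in TKO over these days. For *Gadd45a* the TKO change exceeded that of wt by 2.00 (SE 0.29, adjusted p = 0.0075). For *Plk3* it did so by 1.05 (SE 0.26, adjusted p = 0.079), which did not pass. The *Plk3* change in TKO was thus not shown to differ from its fall in wt.

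Markers of cell types differed between genotypes in the EBs, and fewer cells of a type cannot be told apart from less RNA per cell in such samples. A list of 8 pluripotency genes averaged 10.51 (log2 signal) in wt ESCs, 10.73 in *Dnmt1-/-* ESCs and 10.75 in TKO ESCs. At day 4 its arrays lay at 7.28 to 7.44 in wt, 7.50 to 8.82 in *Dnmt1-/-* and 9.63 to 9.94 in TKO. In TKO against wt, 6 of the 8 genes were called higher at that day, where 2.92% of all probe sets were called. The high arrays of this list at day 4 are thus those in which *Sesn2* and *Cdkn1a* were high. For *Cdkn1a* this match was limited to day 4. Its lowest group mean (7.58) was that of wt ESCs, where the list was high. Its highest (9.83) was that of wt EBs of day 16, the group with the lowest list mean. *Sesn2* went with the list in these groups, with means of 8.66 and 7.46. At day 16 the list was at 7.30, 8.94 and 10.02. All 5 genes of a stroma list were called lower in TKO than in wt at that day, where 5.83% of all probe sets were called. At the same day, where *Cdkn1a* was highest in wt, the mean of the 5 stroma genes was 11.10 in wt, 8.81 in *Dnmt1-/-* and 5.68 in TKO. That of 4 cardiomyocyte genes was 9.85, 9.10 and 7.13, that of 5 macrophage genes 7.23, 5.98 and 5.77, and that of 5 visceral endoderm and hepatic genes 11.59, 11.33 and 9.14. The mean of 6 genes of proliferating cells, whose division p21 opposes, was at 9.52, 9.96 and 10.14 at day 16 and at 10.37, 10.30 and 10.40 at day 4. The mean of 3 primitive streak genes was at 8.01, 8.42 and 7.98 at day 4. The part of these shifts in the values of *Cdkn1a*, *Sesn2* and the other genes was not tested.

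The genes whose pattern over the 9 group means was most like that of a p53 target were taken from 5551 or 5552 genes with a range of at least 1. For *Cdkn1a* they were *Neo1* (Pearson r = 0.974), *Gpr137b-ps* (0.955) and *Arhgef12* (0.953). For *Sesn2* they were *Hook1* (0.993), *Slc7a3* (0.985), an arginine transporter, and *L1td1* (0.982), an RNA-binding protein of ESCs. For *Aen* they were *Mapk11* (0.974), *Wasf1* (0.971) and *Slco5a1* (0.962). *Perp* had no gene above 0.902, which was *Sfrp2*. These correlations describe means that share genotypes and days.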

How the data were processed

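Total RNA extracted with Trizol was hybridised to Affymetrix GeneChip Mouse Gene 1.0 ST arrays. Per the labels, the authors used RMA, which corrects background, brings arrays to 1 distribution and summarises probes, and the deposited log2 values are its output. The version of RMA and the probe annotation it used were not given in the sources used here. RMA keeps no count and no depth, so the number of arrays limits the precision. Values were used as deposited, and all 35512 probe sets were kept. Of these, 21789 had 1 symbol, 1621 several and 12102 none.

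The linear model had a mean for each of the 9 groups, and 22 contrasts of these means were tested with limma 3.58.1 (R 4.3.3), using eBayes with 9 residual and 3.32 prior degrees of freedom from 18 arrays. P-values were adjusted by Benjamini and Hochberg over all probe sets within a comparison. A gene was called at a log2 difference of 1 or more in size and an adjusted p under 0.05. Intervals are 95%. The median SE was 0.203 for a fold change and 0.287 for a difference of changes. The fit was tested on simulated data with independent noise on each array. Such data lack the correlation of same-numbered arrays, so that test does not bear on it.

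The genes, lists, tests and thresholds were chosen with earlier results of these data known. All 8 genes were described in every comparison where space allowed. Called list genes were taken mainly from those of largest absolute fold change in a list, and not all called list genes are named. The genes of highest correlation are given only for *Cdkn1a*, *Sesn2*, *Aen* and *Perp*. Among the genes that matched no probe set with only their symbol were Gdf15, Ripk1 and the marker genes T and Ccnb1. Symbols and sequences came from the platform annotation and RefSeq (GRCm38.p6). The alternatives were another false discovery rate, median and quantile scaling, a fit of only the arrays compared, no dim probe sets (30%), a replicate block, 1 probe set per gene, trend and robust variance, no fold line, and each array left out.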

Additional observations from a re-analysis of the deposited data

Results flagged for a closer look

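For 11 results the change over a stretch of days differed between TKO and wt by the test of the difference itself, given here as the TKO change minus the wt change on the log2 scale. From day 0 to day 4 these were *Gadd45a* at 2.00 (adjusted p = 0.0075) and the BH3-only genes *Bid* at 1.04 (adjusted p = 0.037) and *Bcl2l11*, which encodes Bim, at 1.02 (adjusted p = 0.045). TKO minus wt at day 4 itself was smaller by limma, at 1.30, 0.62 and 0.41 (adjusted p = 0.0025, 0.036 and 0.21). The rest of each difference is a mean TKO signal below that of wt at day 0. From day 4 to day 16, *Cdkn1a* stood at −2.25 (adjusted p = 0.0019), the p53 kinase gene *Hipk2* at −1.30 (adjusted p = 0.0049) and *Ephx1* at −1.90 (adjusted p = 0.0074). Over the same days *Plk2* stood at −1.92 (adjusted p = 0.035), *Gadd45a* at −1.20 (adjusted p = 0.043) and *Trp53i11* at −1.10 (adjusted p = 0.025). On the other side were *Chek1* at 1.08 (adjusted p = 0.034) and *Sirt1* at 1.00 (adjusted p = 0.019). The differences of *Gadd45a* from day 0 to day 4, of *Cdkn1a* and of *Hipk2* were called under every alternative that kept their probe set, that of *Ephx1* was lost only in the fit of the arrays compared, and the others were lost with only the arrays compared. Median scaling also ended the calls of *Bcl2l11*, *Bid*, *Sirt1* and *Gadd45a* from day 4 to day 16, and quantile scaling those of *Bcl2l11* and *Bid*. With each of the 8 arrays of a difference left out in turn, the call was lost 8 times for *Bid* and for *Gadd45a* from day 4 to day 16, 7 times for *Bcl2l11* and *Chek1*, 6 times for *Plk2* and *Trp53i11*, and 4 times for *Sirt1*.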

How the results depend on the processing

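No count of called genes and no called difference turned its direction under an alternative. The counts of the 8 genes were unchanged in all 22 comparisons with a false discovery rate over all comparisons, median or quantile scaling, omission of dim probe sets, 1 probe set per gene, or trend and robust variance. With only the arrays compared, TKO against wt at day 4 had 1 call in place of 2. Without the fold line the counts were 3 for TKO against wt at day 16, 2 and 4 for wt from day 4 and from day 0 to day 16, 1, 2 and 2 for *Dnmt1-/-* from day 0 to 4, 4 to 16 and 0 to 16, and 1 for TKO from day 0 to 16. Leaving out single arrays gave 0 to 2 calls in TKO against wt at day 4, 0 to 1 at day 16, 1 to 2 in wt from day 0 to 16, and 0 to 1 in *Dnmt1-/-* from day 0 to 16 and in TKO from day 0 to 4. Without the probe set that lists a second symbol, an alternative added after seeing the data, 1 call (*Sesn2*) was left in TKO against wt at day 4 and in wt from day 0 to 16. There was then 0 in wt from day 4 to 16, *Dnmt1-/-* from day 0 to 16, TKO from day 0 to 4, and the TKO minus wt change from day 4 to 16.

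Replicate numbers are not stated to mark a shared batch, and the deviations of same-numbered arrays correlated at 0.041 to 0.501, over 0.1 in 32 of 36 pairs of groups. Within a day all pairs were above it, at 0.186 to 0.341, 0.108 to 0.226 and 0.282 to 0.45 for days 0, 4 and 16. All 36 correlations were above 0, so same-numbered arrays shared part of their deviation. What the number stands for is not stated, and the fit reported above leaves this shared part in the residual spread. With the number as a replicate block, *Perp* was called too. The counts became 1 in TKO against wt at day 16, 2 in wt from day 4 to 16, 2 in TKO from day 0 to 4, and 1 and 2 for the TKO minus wt change from day 0 to 4 and day 4 to 16. The choice between several probe sets of a gene could not be tried, since each gene had 1. The fold line keeps any difference under a doubling from being called.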
